A study of Mus musculus with 3 samples.

Results

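Hepcidin and the genes that handle iron were followed across 3 libraries of mouse liver mRNA. The set was chosen by gene symbol and holds 10 of the 23361 genes in the files: the hepcidin genes Hamp and Hamp2, the transferrin receptors Tfrc and Tfr2, transferrin (Trf), the ferritin subunits Fth1 and Ftl1, the iron exporter Slc40a1, ceruloplasmin (Cp) and the inhibitory SMAD Smad7. The mice were male C57BL/6J animals by label, 8 to 10 weeks old, fasted for 12 h and opened by midline laparotomy under chloral hydrate in every group. In the sham group no vessel was occluded and the liver was taken 90 min after surgery. In the warm ischemia (WI) group the vessels to 70% of the liver were clamped for 90 min and the tissue was taken without reperfusion. In the ischemia-reperfusion (IR) group the same clamp was followed by 120 min of reperfusion. Each group had 6 mice but 1 library, and whether a library held RNA of 1 mouse or of several was not stated. The sham tissue was matched in time to the WI tissue and not to the IR tissue, so that the effects of reperfusion and of the longer time after surgery cannot be told apart.

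Hepcidin is a peptide hormone that hepatocytes secrete and that sets how much iron enters the blood. It binds ferroportin, the product of Slc40a1 and the exporter through which macrophages, hepatocytes and enterocytes release iron, and causes its internalisation and breakdown. In the liver, transcription of hepcidin follows both iron stores, through bone morphogenetic protein (BMP) ligands and SMAD factors, and inflammation, through IL-6 and STAT3. Ferritin and transferrin receptor mRNAs are in addition controlled after transcription by iron regulatory proteins, which bind short hairpins called iron-responsive elements.

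The mouse has a pair of hepcidin genes next to each other on chromosome 7, and the sequences before their starts are shown because their point values differed in pattern. The bounds of each gene overlapped between all libraries, and a link between these sequences and the values was not tested. Hamp lay at chr7:30942369-30944017 and Hamp2 at chr7:30922372-30924181 in the files (mm10). The 250 bases upstream of the RefSeq starts (GRCm38.p6, minus strand, chr7:30944030-30944279 for Hamp and chr7:30924182-30924431 for Hamp2) are given 5′ to 3′. The first run of capitals is the core of a BMP response element, searched as GGCGCC, or the bases aligned to it, and the second run is a STAT-type site, searched as TTCNNNGAA.
Hamp: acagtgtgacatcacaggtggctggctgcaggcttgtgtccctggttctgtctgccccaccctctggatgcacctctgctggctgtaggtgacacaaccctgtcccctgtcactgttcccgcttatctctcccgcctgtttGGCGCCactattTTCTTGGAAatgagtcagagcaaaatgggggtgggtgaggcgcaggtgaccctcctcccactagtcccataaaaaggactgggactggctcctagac
Hamp2: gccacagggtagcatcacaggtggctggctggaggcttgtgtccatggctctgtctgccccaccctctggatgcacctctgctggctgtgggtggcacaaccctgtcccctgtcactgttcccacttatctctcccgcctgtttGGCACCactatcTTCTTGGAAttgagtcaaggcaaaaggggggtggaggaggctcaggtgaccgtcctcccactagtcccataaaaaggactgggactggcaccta
The windows were identical at 227 of 247 aligned positions (91.9%). The Hamp window held GGCGCC from base -109 to -104 and TTCTTGGAA from -97 to -89, counted back from the start of transcription. In Hamp2 the STAT-type site had the same letters, and the aligned 6 bases differed by G4A, counted from 1 at the first base of the element. Both searches covered both strands. Of 32851 promoter windows of this length, 9.59% held GGCGCC and 7.02% held TTCNNNGAA. Among the 7 genes of the set found in the RefSeq table, the only other match was GGCGCC in the Tfrc window, from -89 to -84. The antioxidant response element core TGACNNNGC (10.2% of windows) and the E-box CACGTG (6.02%) were in none of the 7. The genes Trf, Slc40a1 and Smad7 were not searched.

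A different sequence feature was found in 4 of the 10 genes. Smad7 was left out when the sites in the set were listed. The element searched for was a hairpin with a CAGTGN loop, 5 paired bases above the bulged C and at least 3 of 4 below it. It was looked for in the whole transcripts of 22611 coding genes, coding sequence included (GENCODE on NCBIM37). Of these genes, 51 (0.226%) held one in any transcript. The sites of 25 bases in Fth1, Ftl1 and Slc40a1 lay before the coding sequence, and the 4 in Tfrc lay after it. They are shown, with the loop in capitals, because these genes encode storage, export and uptake of iron.
Fth1: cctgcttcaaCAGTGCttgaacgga
Ftl1: cttgcttcaaCAGTGTttgaacgga
Slc40a1: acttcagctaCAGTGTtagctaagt
Tfrc, site 1: ttatcggaagCAGTGCcttccataa
Tfrc, site 2: ttatcgggagCAGTGTcttccataa
Tfrc, site 3: atatcggagaCAGTGAtctccatat
Tfrc, site 4: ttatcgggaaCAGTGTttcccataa
The sites began at base 32 of the Fth1 transcript, base 80 of Ftl1, base 104 of Slc40a1 and bases 3317, 3696, 3761 and 3808 of Tfrc.

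The values are fragments scaled by transcript length and library size (FPKM), which the authors computed with Cuffdiff and deposited with 95% bounds, equal to the FPKM ± 2 SD of Cuffdiff's own model. With 1 library per group these bounds hold no variation between mice, no test between groups was possible and no p-value is given. A change is the difference of log2(FPKM + 1), which understates the change of low genes. A gene was counted as higher or lower when FPKM + 1 differed at least 2-fold, and a second rule asked whether the 95% bounds of 2 libraries were apart. Both rules were read against the 10792 genes that reached an FPKM of 1 in any library, which include all 10 genes of the set.

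Several properties of the libraries bear on every comparison with the IR library. Summed FPKM was 475754 in the sham library, 487912 in the WI library and 712423 in the IR library, and the major urinary protein (Mup) genes made up 2.33%, 2.11% and 12.6% of it. The IR sum and the IR Mup share are too low, because 6 Mup genes exceeded Cuffdiff's fragment limit in that library and were listed at 0. Rescaling to a common sum used this IR sum. When all libraries were rescaled to a common sum, the median change of all genes became -0.41 for IR with WI and -0.42 for IR with sham, against 0.03 and 0.05 as deposited, so that changes are also given under that scaling. The sham and WI libraries went against the male label. Xist, which is transcribed from the inactive X chromosome, had an FPKM of 18.9 in the sham, 20.1 in the WI and 1.29 in the IR library. The Y-linked Ddx3y was listed at 0, 0.0085 and 8.58, and Eif2s3y at 0, 0 and 13.2. Summed FPKM of 12 male-biased liver genes was 735, 338 and 21334, and without Mup20 and Serpina1e, which made up most of the IR sum and were set aside after their values were seen, 133, 118 and 1039. That of 10 female-biased genes was 2397, 1718 and 959. In WI with sham 4 of these 10 were 2-fold lower and 0 higher, beside 1.1% and 0.751% of all genes. The lowest was Cyp3a16, at 36.1, 1.84 and 1.21, while 3 of the 10 lay above 0. Of the 12 male-biased genes 2 were 2-fold lower in WI than in sham and 0 higher, with a median change of 0.02. The sham and WI libraries thus also differed in some sex-biased genes. Sex of the animals and reperfusion therefore cannot be told apart in any comparison with the IR library, and only WI with sham sets libraries of the same Xist and Y-linked state beside each other. The hepatocyte markers were abundant in all libraries, with a summed FPKM of 19769, 15850 and 22785, although albumin (Alb), whose locus exceeded the same limit, was listed at 0 in each.

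**Figure D1:**
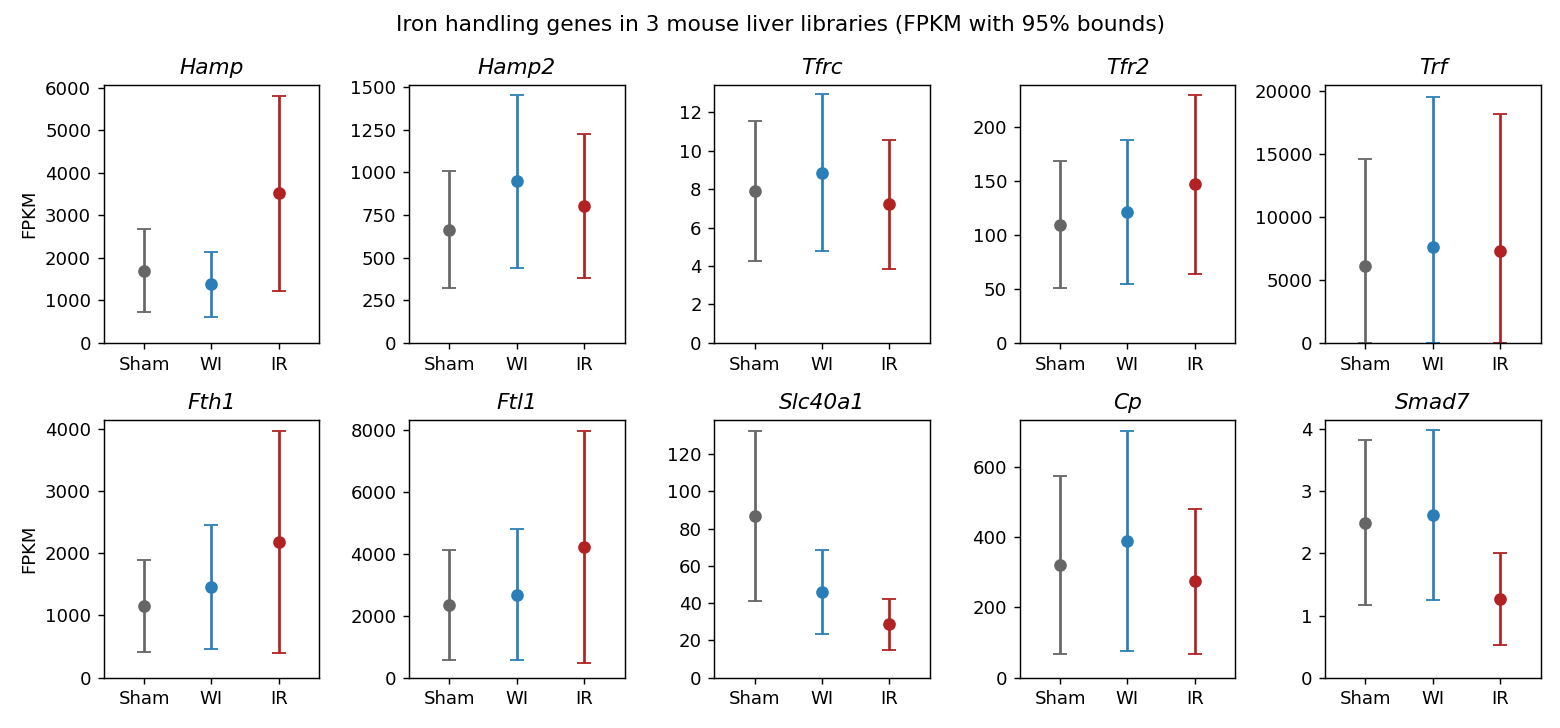
FPKM (vertical axes, linear and starting at 0) of the 10 iron handling genes in the sham, WI and IR libraries, with the deposited 95% bounds of Cuffdiff's model as bars and 1 point per library. Hamp stood highest in the IR library and Slc40a1 was lower in each library from sham to WI to IR, while for every gene the bounds of any 2 libraries overlapped.

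After 90 min of ischemia without reperfusion, none of the 10 genes had changed 2-fold. The largest difference of the set was in Slc40a1, which was at 52.8% of its sham level. Over all genes, 0.751% were at least 2-fold higher in WI than in sham, 1.1% were at least 2-fold lower, and 0.676% had bounds that were apart, against 0 of 10 by each rule in the set. The median change of the set was 0.17 and that of all genes 0.02.

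After reperfusion, 1 of the 10 genes, Hamp, was at least 2-fold higher in IR than in WI and 0 were lower. Among all genes 5.78% were higher and 1.43% lower. In IR with sham, Hamp was higher and Slc40a1 lower, so that 1 of 10 stood beside 5.35% of all genes that were higher and 1 of 10 beside 2.15% that were lower. No gene of the set had bounds that were apart, against 3.61% of all genes in IR with WI and 3.82% in IR with sham. With 10 genes, 1 gene is the smallest share above 0 that can be counted, and these counts do not set the group apart from other genes.

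Hamp was among the most abundant mRNAs of the liver, ranking 38th of all genes in the sham library, 45th in WI and 34th in IR. Its FPKM was 1700 in sham (95% bounds 725 to 2674), 1378 in WI (615 to 2141) and 3515 in IR (1223 to 5806). The sham and WI libraries lay close together and the IR library stood above both, although all 3 intervals overlapped. The change was -0.30 for WI with sham, with a standard error of 0.58 from Cuffdiff's model, and 1.35 for IR with WI, with a standard error of 0.62. As a ratio of FPKM, IR was 2.55-fold above WI and 2.07-fold above sham. A larger rise from WI to IR was seen in 363 of the 10792 genes (3.36%). Among the 97 genes that reached an FPKM of 1000, where Hamp belongs, 24.7% were at least 2-fold higher in IR than in WI, and the median coefficient of variation given by the bounds was 40.8% in the IR library. Rescaled to a common sum, the change of Hamp was 0.80 for IR with WI and 0.47 for IR with sham, both under 2-fold, which is 1.22 and 0.88 above the median of all genes under that scaling.

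The neighbouring Hamp2, whose product resembles hepcidin but is not known for the same effect on iron, had another pattern. Its FPKM was 664 in sham (322 to 1006), 946 in WI (437 to 1456) and 803 in IR (380 to 1226). WI was here the highest library and all intervals overlapped. The changes were 0.51, -0.24 and 0.27 for WI with sham, IR with WI and IR with sham, and the last 2 became -0.78 and -0.31 at a common sum. Of all genes, 4.49% had a larger rise from sham to WI.

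The balance of the pair does not depend on how libraries are scaled. Hamp over Hamp2 was 2.56 in sham, 1.46 in WI and 4.38 in IR, and Hamp made up 71.9%, 59.3% and 81.4% of the summed hepcidin FPKM. On the log2 scale these ratios were 1.36, 0.54 and 2.13, with model standard errors of 0.56, 0.56 and 0.60. Within 1 error the sham ratio overlapped both others while the WI and IR ratios were apart. At 2 errors, the width of the deposited bounds, all 3 ratios overlapped. The errors of Hamp and Hamp2 were combined as if independent. The sum of both genes was 2364, 2324 and 4317, or 0.497%, 0.476% and 0.606% of all FPKM. The split between the genes is uncertain, because their transcripts were identical at 370 of 392 positions (94.4%) and 60 of the 343 stretches of 50 bases in Hamp were also in Hamp2. How reads that matched both were divided was not stated beyond the program's defaults.

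**Figure D2:**
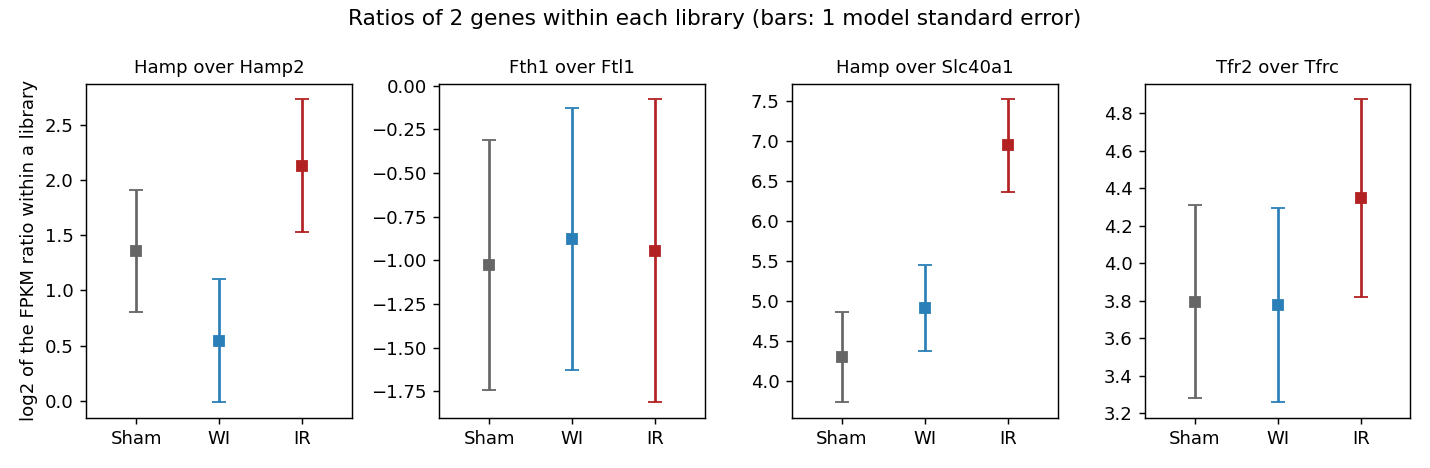
Log2 of the FPKM ratio of 2 genes within each library (vertical axis, own range in each panel) for Hamp over Hamp2, Fth1 over Ftl1, Hamp over Slc40a1 and Tfr2 over Tfrc, with bars of 1 standard error from Cuffdiff's model. Hamp over Slc40a1 was higher in each library from sham to IR (log2 ratios of 4.29, 4.91 and 6.94), while Fth1 over Ftl1 stayed between -1.03 and -0.88.

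The receptors of transferrin differed little as deposited. Tfr2, which hepatocytes use to sense iron-loaded transferrin upstream of hepcidin (chr5:137569851-137587481), had an FPKM of 110 in sham (50.5 to 169), 121 in WI (54.6 to 188) and 147 in IR (64.0 to 230). The point values were highest in IR, with changes of 0.15 for WI with sham and 0.27 for IR with WI, each under its model standard error of 0.56 and 0.57, and the latter turned to -0.27 under a common sum. Tfrc, the receptor through which most cells take up transferrin-bound iron (chr16:32608896-32632794), was at 7.90 (4.24 to 11.6), 8.86 (4.76 to 12.96) and 7.21 (3.86 to 10.6). No library stood out as deposited, and the changes were 0.15, -0.26 and -0.12 for WI with sham, IR with WI and IR with sham. At a common sum the last 2 became -0.74 and -0.63, where the median of all genes was -0.41 and -0.42. The FPKM of Tfr2 was 13.9 times that of Tfrc in sham, 13.7 times in WI and 20.4 times in IR.

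Transferrin itself, the iron carrier of the plasma that the liver secretes, was measured least precisely. Trf had an FPKM of 6078 in sham, 7636 in WI and 7313 in IR, the 6th, 3rd and 14th highest level of each library. The lower bound was 0 in all 3 and the upper bound 14579, 19514 and 18217, a coefficient of variation of 69.9% to 77.8%. The changes, 0.33 for WI with sham and -0.06 for IR with WI, cannot be resolved at that precision.

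Both ferritin subunits, which together form the shell that stores iron, had their highest values after reperfusion. Fth1, the heavy subunit with ferroxidase activity (chr19:9980600-9985111), was at 1150 in sham (408 to 1891), 1458 in WI (465 to 2451) and 2187 in IR (403 to 3971). Ftl1, the light subunit (chr7:45457944-45459886), was at 2345 (575 to 4115), 2680 (570 to 4790) and 4211 (476 to 7946). For both genes the order was sham, WI, IR, the intervals overlapped widely and the 2-fold mark was not reached. In IR with sham the change was 0.93 for Fth1, with a model standard error of 0.75, and 0.84 for Ftl1, with one of 0.84. In IR with WI it was 0.58 and 0.65, and only 0.04 and 0.11 once the libraries had a common sum. The proportion of the subunits differed little, with Fth1 over Ftl1 at 0.490, 0.544 and 0.519. Ferritin genes have processed copies elsewhere in the genome, and reads shared with these could have been counted there.

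Export of iron was represented by Slc40a1, which had the largest fall in the set. Slc40a1, ferroportin, on chr1:45908070-45925594, was at 86.8 in sham (41.0 to 133), 45.9 in WI (23.4 to 68.3) and 28.6 in IR (15.1 to 42.1). Sham was the highest library and IR the lowest, and the IR interval reached just above the lower bound of the sham interval. The change was -0.91 for WI with sham, with a model standard error of 0.52, -0.66 for IR with WI, with one of 0.49, and -1.57 for IR with sham, with one of 0.51. IR was thus at 33.0% of the sham FPKM, and only 55 of the 10792 genes (0.510%) had a lower value in that comparison. The direction was the same under every scaling, at -2.13 for IR with sham and -1.19 for IR with WI under a common sum. In WI with sham, where the Mup share and the Y-linked genes were alike in both libraries, 154 genes (1.43%) were lower. In rank, Slc40a1 went from 777th in sham to 1334th in WI and 2082nd in IR.

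Slc40a1 is strongly expressed by Kupffer cells, the macrophages of the liver sinusoids, and the markers of these cells moved with it. Summed FPKM of the 9 Kupffer markers in the files was 533 in sham, 275 in WI and 178 in IR. In WI all 9 were below sham, at 43.3% to 66.5% of its level with a median of 57.0%, and Slc40a1 at 52.8% lay within that range. In IR, 7 of the 9 were at least 2-fold below sham, as deposited and at a common sum, beside 2.15% and 10.3% of all genes. Their median level was 28.5% of sham, with Slc40a1 at 33.0%. Examples are Clec4f, a lectin of Kupffer cells, at 115, 65.3 and 32.7, and Vsig4, a complement receptor, at 67.8, 35.1 and 12.4. The exceptions were Marco at 20.9, 12.6 and 25.3 and Cd68 at 18.5, 12.3 and 18.5, which are also found in other macrophages. None of the 9 was at 0 in any library. In bulk tissue, fewer cells of a type and less RNA per cell cannot be told apart, and the part of Kupffer cells in the fall of Slc40a1 was not tested. Endothelial markers summed to 187, 141 and 139. Without Lyve1, which was left out after its values were seen (11.2, 2.73 and 33.4), the sums were 176, 139 and 106. All 10 endothelial markers were below sham in WI. In IR with sham 1 of the 10, Kdr at 43.9% of sham, was 2-fold lower as deposited and 1, Lyve1, was higher. At a common sum 7 of the 10 were 2-fold lower and 0 higher, beside 10.3% and 2.49% of all genes. Stellate markers summed to 151, 108 and 112, most of it from Dcn (130, 91.2 and 95.5). Of these 8 markers, 4 were above sham in IR and 4 below. They ranged from Lrat, at 29.4% of sham, to Col1a1, at 2.56 times its sham FPKM. At a common sum 4 of the 8 were 2-fold lower in IR than in sham.

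**Figure D3:**
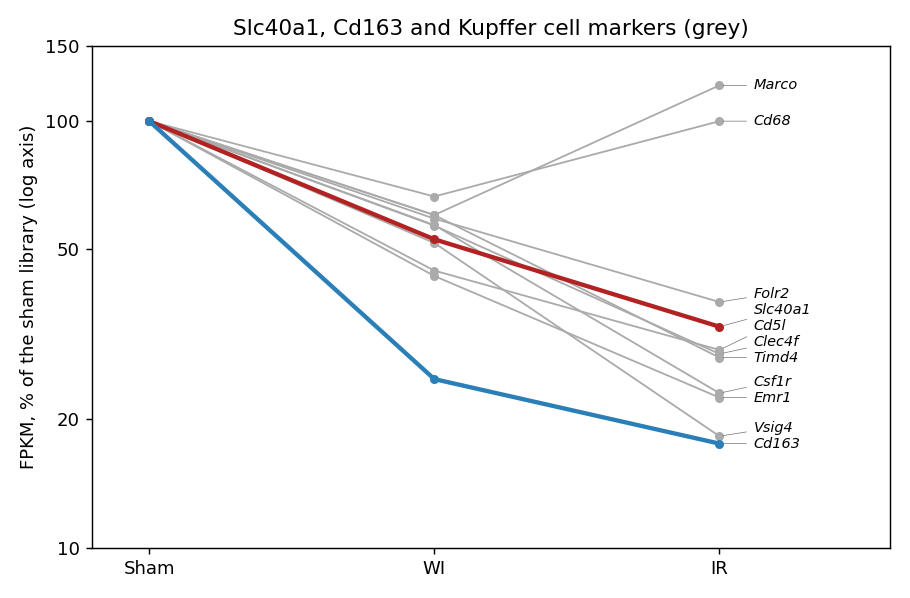
FPKM as a percentage of the sham library (log axis) in the sham, WI and IR libraries for Slc40a1 (red), the haptoglobin-hemoglobin scavenger receptor Cd163 (blue) and 9 Kupffer cell markers (grey), 1 point per library. In the IR library Slc40a1, at 33.0% of sham, lies between Folr2 at 37.7% and Cd5l at 29.1%, while Marco and Cd68 are near or above 100%.

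Set against each other within a library, hepcidin mRNA was highest and the mRNA of its target lowest after reperfusion, while both were below sham in the WI library. Hamp over Slc40a1 was 19.6 in sham, 30.0 in WI and 123 in IR. The log2 ratio was 4.29, 4.91 and 6.94, with model standard errors of 0.56, 0.53 and 0.58, so that the sham and WI ratios differed by less than their combined error and IR lay above both. At 2 errors the IR ratio overlapped that of WI and not that of sham. Fth1 over Slc40a1 was 13.2, 31.8 and 76.5.

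Cp, the plasma ferroxidase that helps load exported iron onto transferrin, had an FPKM of 322 in sham (68.5 to 576), 390 in WI (77.0 to 703) and 275 in IR (68.4 to 482). Its changes were 0.28 for WI with sham and -0.50 for IR with WI, each under its model standard error of 0.81 and 0.79. The files give Cp the same locus as the overlapping gene Hps3 (chr3:19957054-20035310), which can affect how fragments were assigned. Under a common sum the change for IR with WI was -1.05, past 2-fold.

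Smad7, which the BMP pathway induces and which dampens hepcidin transcription in turn, was the lowest gene of the set. Its FPKM was 2.50 in sham (1.17 to 3.82), 2.62 in WI (1.25 to 3.98) and 1.27 in IR (0.527 to 2.01). Sham and WI were alike in value and IR was lower, with overlapping intervals. The change was 0.05 for WI with sham and -0.67 for IR with WI. At so low a level the added 1 matters, and as a plain log2 ratio IR with WI was -1.04, with a model standard error of 0.57.

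**Figure D4:**
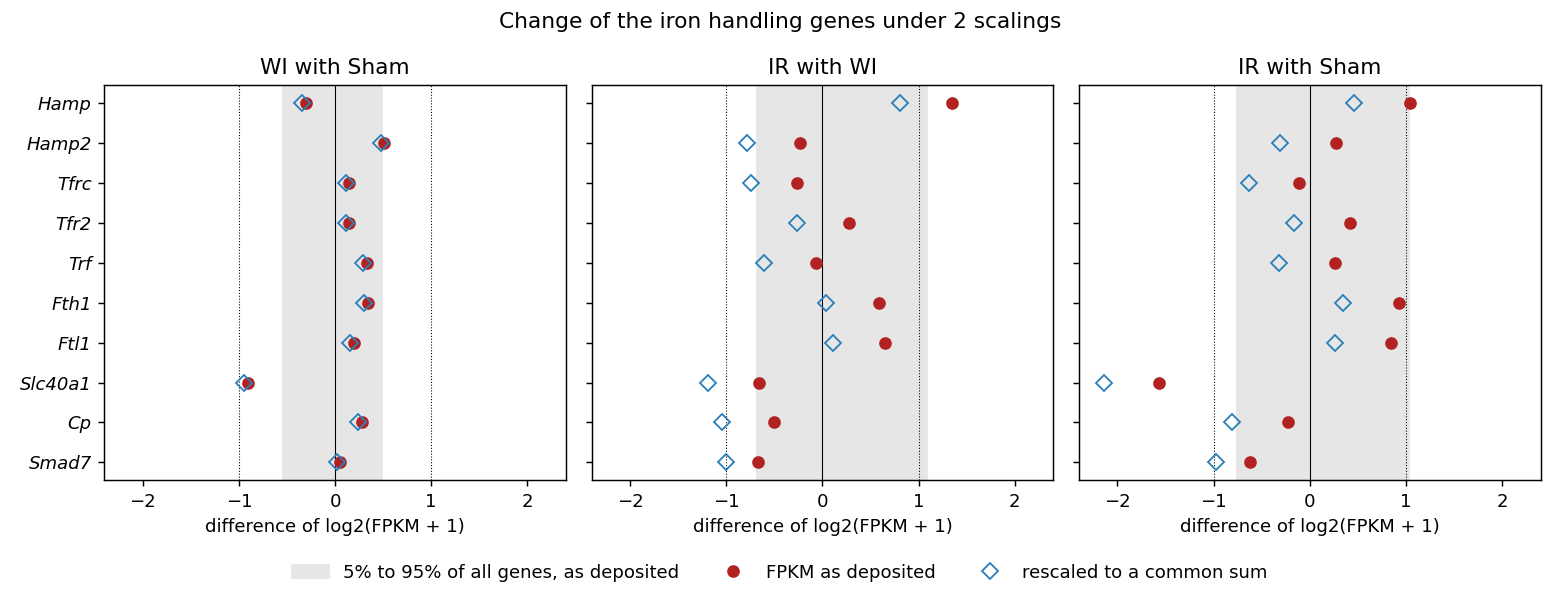
Difference of log2(FPKM + 1) of the 10 genes (horizontal axis) in WI with sham, IR with WI and IR with sham, as deposited (filled circles) and with all libraries at a common sum (open diamonds); the grey band spans the middle 90 percent of all genes as deposited and dotted lines mark 2-fold. The scalings nearly coincide for WI with sham and part in both comparisons with IR, where every diamond lies to the left of its circle and Hamp passes 2-fold as deposited (1.35 and 1.05) and not when rescaled (0.80 and 0.47).

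Genes around the set were taken from 8 lists by role, of which 68 of the 80 symbols passed the filter on low values and 76 were in the files, some symbols being older and newer names of 1 gene. In WI with sham 1 of the 68 was at least 2-fold higher and 4 were lower, in IR with WI 12 were higher and 1 lower, and in IR with sham 12 were higher and 3 lower. Over all genes the shares higher and lower were 0.751% and 1.1%, 5.78% and 1.43%, and 5.35% and 2.15%. The medians were 0.04, 0.19 and 0.08, beside 0.02, 0.03 and 0.05 over all genes. At a common sum the counts were 6 higher and 5 lower in IR with WI, beside 2.98% and 7.72% of all genes, and 5 higher and 9 lower in IR with sham, beside 2.49% and 10.3%.

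Among 14 genes of the upstream control of hepcidin by iron, 0 passed 2-fold in any comparison as deposited and with the added 1. Bmp6, the main ligand that endothelial cells release when iron is high, was at 2.92 in sham, 1.84 in WI and 1.23 in IR. Bmp2, the other endothelial ligand, was at 8.05, 6.01 and 3.70. Both ligands were thus lowest in the IR library, in which Hamp was highest. The FPKM in IR was 0.421 of sham for Bmp6 and 0.460 for Bmp2, so that both were counted as 2-fold lower in IR with sham at a pseudocount of 0.01, and, with Smad9, at a common sum. The co-receptor hemojuvelin (Hfe2 in the files) was at 20.2, 23.0 and 19.3, Hfe, which works with Tfr2, at 22.7, 21.6 and 27.2, and Tmprss6, the protease that cleaves hemojuvelin and lowers hepcidin, at 119, 124 and 152.

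Of 6 further targets of BMP and SMAD signalling, Id3 was 2-fold higher in IR than in WI under both scalings, at 33.8 in sham, 29.3 in WI and 123 in IR, with bounds apart in both comparisons with IR. Id2 passed 2-fold in IR with sham as deposited, at 36.2, 61.5 and 91.4, and not at a common sum (0.74). As deposited the other targets had no 2-fold change, and at a common sum Smad6 was 2-fold lower in IR than in both other libraries. Id1 was at 12.3, 9.90 and 10.3, and Smad6, a second inhibitory SMAD, at 3.18, 3.42 and 1.72. Id2 and Id3, regulators of transcription without a DNA-binding domain of their own, also respond to other signals.

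In the IL-6 and STAT3 response, 8 of 14 genes were at least 2-fold higher and 1 was lower in IR with WI, beside 5.78% and 1.43% of all genes, and the median was 1.06. Several of the higher genes (Saa1, Saa2, Fga, Fgb and Fgg) reached an FPKM of 1000. Among the 97 genes at that level, 24.7% were 2-fold higher in IR with WI. At a common sum 3 of the 14 were higher (Socs3, Saa2 and Saa3) and 1 lower, with a median of 0.52, beside 2.98% and 7.72% of all genes. Socs3, the feedback inhibitor that STAT3 induces, had an FPKM of 3.14 in sham, 5.38 in WI and 109 in IR, a change of 4.11 from WI to IR with bounds apart. Stat3 was at 19.5, 24.0 and 52.3, and its change from WI to IR was 1.10 as deposited and 0.56 at a common sum. Il6 itself was near 0 in every library, at 0, 0.037 and 0.15, and its receptor subunit Il6ra was at 29.8, 14.5 and 13.5, which is 2-fold lower in IR than in sham.

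The acute-phase genes of that list did not all share the pattern of Hamp. The fibrinogen genes Fga, Fgb and Fgg were 2-fold higher in IR than in both other libraries as deposited, with Fgb at 2180, 2596 and 5290 and bounds that overlapped, and none of the 3 passed 2-fold at a common sum, where their changes from WI to IR were 0.80, 0.48 and 0.64. The serum amyloid genes were lower in WI than in sham and higher again in IR, a rise that for Saa1 fell short of 2-fold at a common sum (0.83). Saa1 was at 3414, 1248 and 3251, Saa2 at 2187, 915 and 2756, and Saa3 at 57.2, 27.5 and 121. Saa1 and Saa2 are near-identical copies whose reads may be split between them. Orm2, an acute-phase glycoprotein, was lower in IR, at 432, 500 and 201. Hamp over Fgb was 0.780, 0.531 and 0.664, ratios that lay closer together than their model errors of 0.78 to 0.97 on the log2 scale.

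Among the transporters and reductases of iron import, 2 of 8 were higher in IR than in WI and 0 lower, beside 5.78% and 1.43% of all genes. Slc39a14, which carries iron that is not bound to transferrin into hepatocytes, was at 41.9 in sham, 35.2 in WI and 113 in IR. Steap4, a metalloreductase, was at 29.8, 49.7 and 141, with bounds apart in IR with sham. At a common sum its change from WI to IR was 0.95, short of 2-fold, and that of Slc39a14 was 1.12, while the mitochondrial iron importer Slc25a37 became 2-fold lower. The 6 genes of iron sensing and ferritin handling, which include the iron regulatory proteins Aco1 and Ireb2, had no 2-fold change in any comparison under either scaling, and neither did the 10 genes of iron-sulfur cluster assembly. In IR with sham all 10 of the latter lay above 0 as deposited, with a median of 0.30, which became -0.25 at a common sum.

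Outside the STAT3 list, the largest change of a listed gene was in the release of iron from heme. Hmox1, heme oxygenase, which carries out that step, was at 22.6 in sham, 18.1 in WI and 280 in IR, a change of 3.88 from WI to IR with bounds apart. Cd163, the macrophage receptor for hemoglobin bound to haptoglobin, was at 16.2, 4.02 and 2.84, with bounds already apart in WI with sham, where it fell further than any of the 9 Kupffer markers. Lcn2, which binds bacterial siderophores and so withholds iron, was at 121, 335 and 482 and was the only gene of the 8 lists that was 2-fold higher in WI than in sham. Lcn2 is also made by neutrophils, whose 9 markers in the files summed to 25.9, 19.5 and 471, most of it from S100a8 (13.6, 9.17 and 212) and S100a9 (8.86, 8.07 and 204). Of the markers of neutrophil precursors, Mpo was at 0.060, 0.013 and 0, and Elane, whose locus is merged with others in the files, was not resolved. Hemoglobin and other erythroid markers summed to 754, 521 and 1978. The parts of these cells in the values of Lcn2, Hmox1 and Socs3 were not tested.

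**Figure D5:**
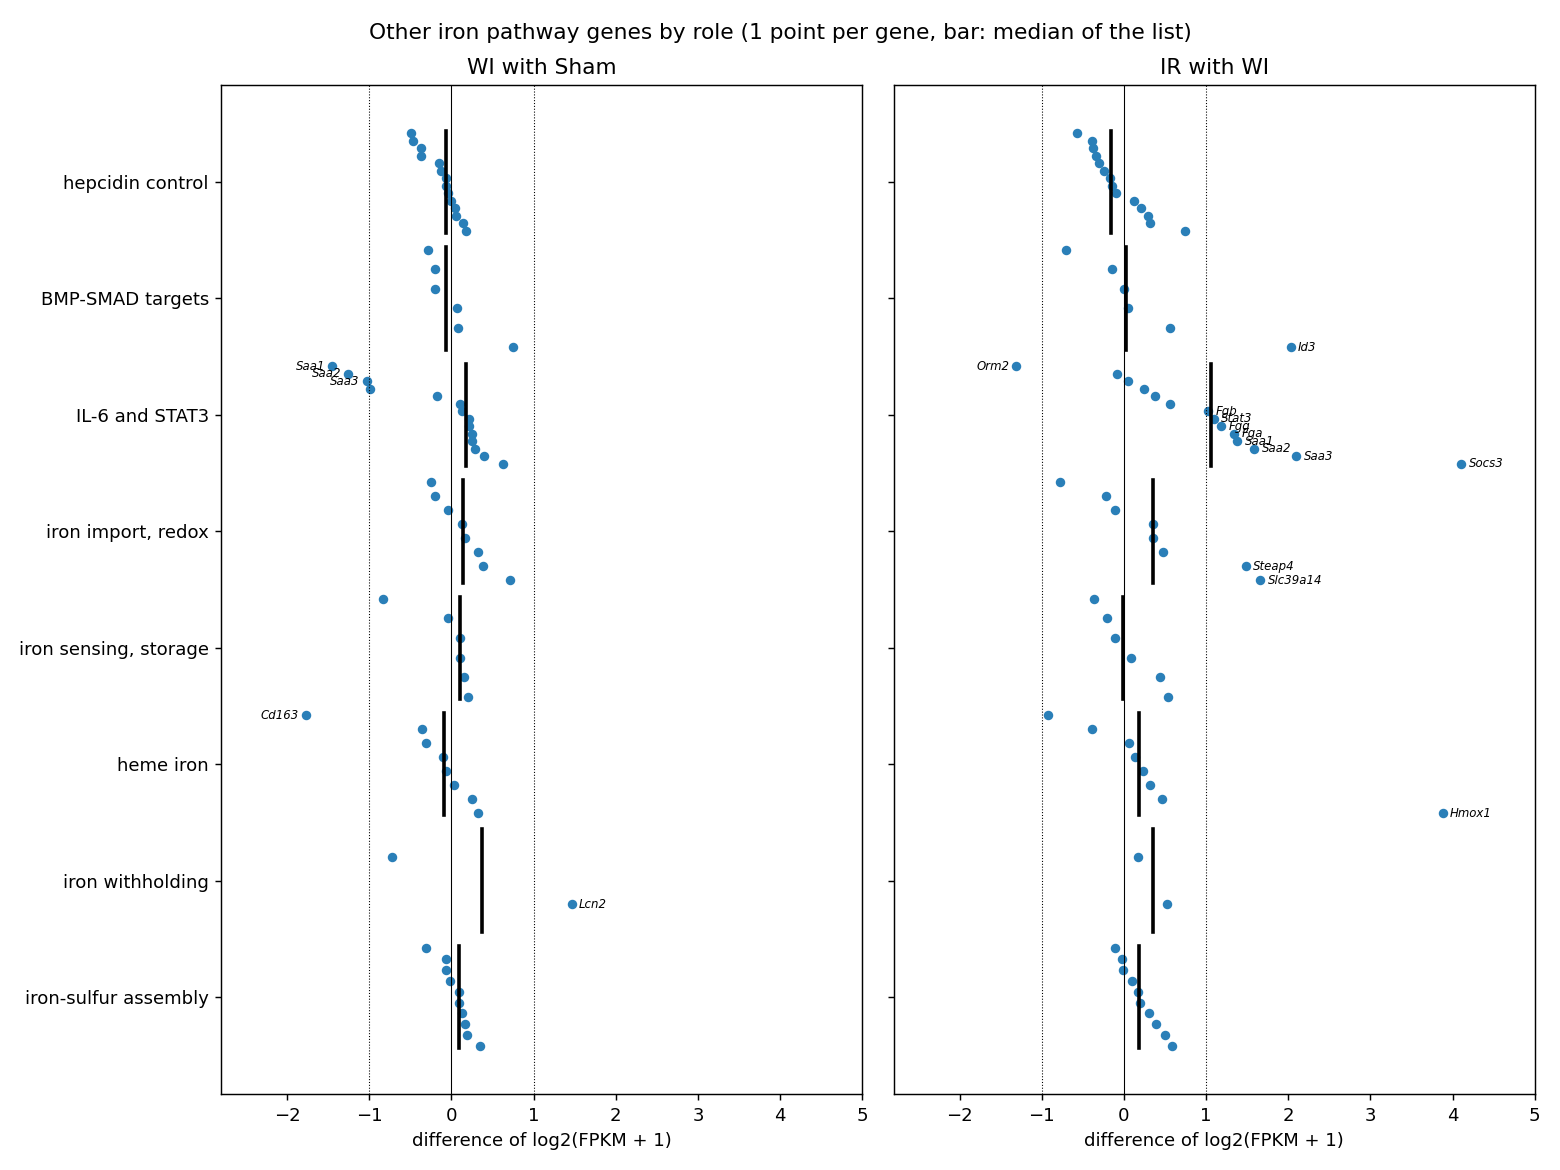
Difference of log2(FPKM + 1) (horizontal axis) in WI with sham (left) and IR with WI (right) for the 68 genes of 8 iron pathway lists that passed the filter, 1 point per gene, with a bar at the median of each list and dotted lines at 2-fold. Genes past 2-fold are named, and most of those to the right of the line in IR with WI belong to the IL-6 and STAT3 list (8 of 12, as deposited).

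The genes whose pattern across the 3 libraries was most like that of Hamp were found by the distance between their pairs of changes, over 4593 genes that reached an FPKM of 10 in any library. The nearest were Ces3b (116 in sham, 91.8 in WI and 227 in IR), Taf1d, Clic4, Shb and Uck2, at distances of 0.06 to 0.07 on the log2 scale. The likeness rests on 2 changes per gene and is given as a description.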

How the data were processed

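Liver mRNA was sequenced on an Illumina HiSeq2000, 1 library for each of 3 groups. The authors mapped reads to mm10 with TopHat2 2.0.9 and computed FPKM per gene with Cuffdiff (Cufflinks 2.0.2, default parameters); the deposited tables hold FPKM, 95% bounds and a status, and hold no counts, so that fragments per gene are unknown. The model error of the smallest deposited values gave a depth factor of 1.04 (sham), 1.17 (WI) and 0.820 (IR) relative to their geometric mean. This factor belongs to Cuffdiff's model and is not a count of reads. As deposited the sums differed between libraries, while the median change of all genes was 0.03 for IR with WI and 0.05 for IR with sham. The factors of the median-ratio scaling were 1.02 (sham), 1.00 (WI) and 0.978 (IR). Scaling to a common sum lets a few abundant genes lower the share of all others.

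Samples were grouped by their descriptions. Python 3.11.15, numpy 2.4.6 and pandas 2.3.3 were used, with a pseudocount of 1, a filter of FPKM of at least 1 in at least 1 library and a 2-fold threshold. Model standard errors were derived from the bounds, taken as 2 SD. Promoters and gene names came from RefSeq (GRCm38.p6, the same assembly as mm10) and transcripts from GENCODE on NCBIM37, used by position in the transcript only. Files count the start of a locus from 0, and 1 was added.

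The members and lists were chosen with earlier results of these data known. Named were the 10 members, the listed genes past 2-fold, a fixed set of regulators and the 5 genes nearest to Hamp. The 11 alternatives were 2 pseudocounts, 2 filters, 3 scalings, 2 fold thresholds, genes of status OK and the rule on bounds.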

Additional observations from a re-analysis of the deposited data

How the results depend on the processing

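No paired analysis was possible because each group had 1 library, and for the same reason no library could be left out. The deposited bounds cover the error of Cuffdiff's model only. For the 10 genes, WI with sham gave 0 changed, IR with WI 1 and IR with sham 2. At a pseudocount of 0.01 IR with WI gave 2, Hamp higher and Smad7 lower, beside 8.25% of all genes higher and 4.09% lower. At a common sum IR with WI gave 3, all lower (Slc40a1, Cp and Smad7), and IR with sham gave 1, Slc40a1, also lower. Of all genes, 7.72% and 10.3% were lower in these comparisons at a common sum. The median-ratio scaling and the common sum without the Mup genes also gave 1 in IR with sham, Slc40a1, and the latter gave 1 in IR with WI, which was Slc40a1 in place of Hamp. Of all genes, 2.53% and 6.63% were lower in IR with sham under these scalings. Without the Mup genes 4.57% were lower in IR with WI. A 1.5-fold threshold gave 1 (lower) in WI with sham, 4 in IR with WI (2 higher and 2 lower) and 5 in IR with sham (3 and 2). The shares of all genes higher and lower were 3.14% and 4.27%, 12.4% and 7.40%, and 14.3% and 9.49%. A 4-fold threshold gave 0 in IR with WI and 0 in IR with sham, beside 1.62% and 0.176%, and 1.31% and 0.232%. The rule on bounds gave 0 in both, beside 3.61% and 3.82% of all genes.

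For the 68 listed genes, which gave 5, 13 and 15, the 1.5-fold threshold gave 11 in WI with sham (4 higher and 7 lower). It gave 27 in IR with sham (19 and 8), beside 14.3% and 9.49% of all genes, and 3.14% and 4.27% in WI with sham. The 4-fold threshold gave 0, 4 and 4, with 0, 4 and 3 of them higher. Of all genes, 0.0649%, 1.62% and 1.31% were 4-fold higher and 0.158%, 0.176% and 0.232% lower. The rule on bounds gave 1, 4 and 6, beside 0.676%, 3.61% and 3.82% of all genes. Scaling moved the split of all genes. In IR with WI it was 624 higher and 154 lower as deposited, 322 and 833 at a common sum, and 389 and 493 at a common sum without the Mup genes. In IR with sham it was 577 and 232, 269 and 1109, and 320 and 715. Signs turned at a common sum, with and without the Mup genes, for Tfr2 in IR with WI (-0.27 and -0.11) and, in IR with sham, for Hamp2 (-0.31 and -0.15) and Trf (-0.32 and -0.16), and with the Mup genes for Tfr2 in IR with sham (-0.16). Of the 30 changes of single genes, 7 moved by more than their model error at a common sum. That scaling multiplies every gene of a library by the same factor. Which changes moved therefore depended mainly on how small their model error was. Under the other scalings and the pseudocounts 0 moved by that much. The filters and the restriction to status OK leave the value of a gene as it is, so they could not move any.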
